A study of Homo sapiens with 15 samples.

Results

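The genes described here carry symbols of subunits of the respiratory chain and ATP synthase, and 2 of them are annotated as pseudogenes. They were taken by gene symbol: NDUFA, NDUFB, NDUFC, NDUFS and NDUFV genes, SDHA to SDHD, UQCR genes, COX4 to COX8 genes, ATP5 genes, and the MT-ND, MT-CO, MT-CYB and MT-ATP genes of the mitochondrial genome. Of 195 symbols of this form, 86 had a mean normalized count of at least 50 over all libraries and are the members, out of 59608 genes listed. The members comprised 73 nuclear genes (29 of complex I, 4 of complex II, 10 of complex III, 13 of complex IV and 17 of complex V) and 13 mitochondrial genes (7 of complex I, 1 of complex III, 3 of complex IV and 2 of complex V). NDUFA4 was counted with complex IV. Of the 86 members, 84 were annotated as protein coding. The pseudogenes UQCRFS1P1 and COX6A1P2 were counted with complexes III and IV. The other 109 symbols were below the minimum, and 94 of them were not annotated as protein coding. The nearest to the limit were NDUFS7 and NDUFB8, with means of 46.7 and 42.7, just below it, and NDUFA11 and SDHA, with 51.4 and 83.1, just above.

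The cells were MDA-MB-231, an established human line from a triple-negative breast cancer, grown in flat dishes in medium with fetal bovine serum. Each dish received either the vehicle, DMSO at 0.1%, or ZJ-101 at 0.5, 5, 50 or 500 nM for 6 h, with 3 libraries of polyadenylated RNA a group. The study examined ZJ-101, a small molecule, for its effects on cell adhesion. Values are normalized counts, which are reads on a gene divided by a size factor of its library.

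The respiratory chain moves electrons from NADH and succinate to oxygen through complexes I to IV, and complex V uses the resulting proton gradient to make ATP. Most subunits are made from nuclear genes, each with its own promoter, and are imported. The remaining core subunits are encoded by mitochondrial DNA, which is transcribed from both strands as long precursors that are cut into mRNAs, rRNAs and tRNAs. Mitochondrial mRNAs carry short poly(A) tails, apart from MT-ND6, which is known to lack one.

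Of the markers that this line is known to express strongly, VIM, CD44, AXL, EGFR, KRT18 and CAV1 had means from 4427 to 14566 normalized counts. The 6 markers known to be low in it had means from 0.0687 to 290, with KRT5 and ESR1 under 1 and EPCAM the highest. Of 7 markers of blood, endothelial, liver and muscle cells, 6 had a mean under 2, and PECAM1 had a mean of 251 (201 to 321 over the libraries). Each library had between 12415519 and 15284762 reads on genes. One library stood apart from its group: the chi-square of replicate 2 at 0.5 nM against its mates, per degree of freedom, was 11.1 and 16.6, where other pairs within a group had 2.04 to 6.27. Limma results at 0.5 nM that rest on that library are given with and without it.

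Some of the mitochondrial genes share bases with a neighbour, which limits how reads on them can be assigned. MT-ATP8 lies at chrM:8366-8572 (hg38, plus strand, coding, 207 bases), and its last 46 bases, in capitals, are also the start of MT-ATP6. The second sequence (chrM:10749-10776) shows the 7 bases, in capitals, that end MT-ND4L and begin MT-ND4.
MT-ATP8: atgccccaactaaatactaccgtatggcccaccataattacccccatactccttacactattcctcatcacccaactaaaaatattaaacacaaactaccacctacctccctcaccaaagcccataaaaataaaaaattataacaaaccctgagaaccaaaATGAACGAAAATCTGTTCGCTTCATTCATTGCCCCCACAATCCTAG
MT-ND4L and MT-ND4 junction: aacctactccaATGCTAAaactaatcgt

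Counted per kb of transcript, the mitochondrial genes of complex IV had the highest levels of all members. MT-CO1, the catalytic core of cytochrome c oxidase, had a mean level of 28233 normalized counts per kb. MT-CO2 had 26923 per kb and MT-CO3 had 21440 per kb. The lowest value among the 13 mitochondrial genes was that of MT-ATP8 at 1027 per kb, while MT-ATP6, which overlaps it, had 17818. How reads were assigned between these overlapping genes was not tested, so the MT-ATP8 value may not be a transcript level. The 7 mitochondrial genes of complex I ranged from 4375 per kb (MT-ND6, the only member on the other strand of the mitochondrial genome) to 14784 per kb (MT-ND4). Among the coding nuclear members, the median level by complex was 909 per kb in complex I, 874 in complex II, 369 in complex III, 1287 in complex IV and 1323 in complex V. In the same order, the median normalized counts were 831, 1156, 1871, 1260 and 1581. Complex III was thus lowest per kb and highest by count. Each length was that of a single GENCODE transcript, such as 8459 bases in UQCRB, and complex III includes the UQCRHL retrogene. ATP5F1B, the catalytic beta subunit of ATP synthase, was the highest nuclear member with 7983 per kb.

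The share of reads on the 13 mitochondrial genes varied more among replicates than among doses. In DMSO it was 0.934%, 0.748% and 1.30% in replicates 1 to 3 (mean 0.994% ± 0.280, SD, n = 3). At 0.5 nM it was 0.927%, 1.52% and 0.687%, and at 5 nM 1.21%, 1.59% and 1.68% (1.49% ± 0.249, SD, n = 3). At 50 nM it was 0.866%, 1.43% and 1.43%, and at 500 nM 0.797%, 1.46% and 0.946%. Every treated group overlapped DMSO, and the highest library of all had 2.46 times the summed normalized count of the lowest. For the 73 nuclear genes that ratio was 1.23, and their share lay between 0.718% and 0.872%, with the highest value in replicate 2 at 0.5 nM.

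**Figure D1:**
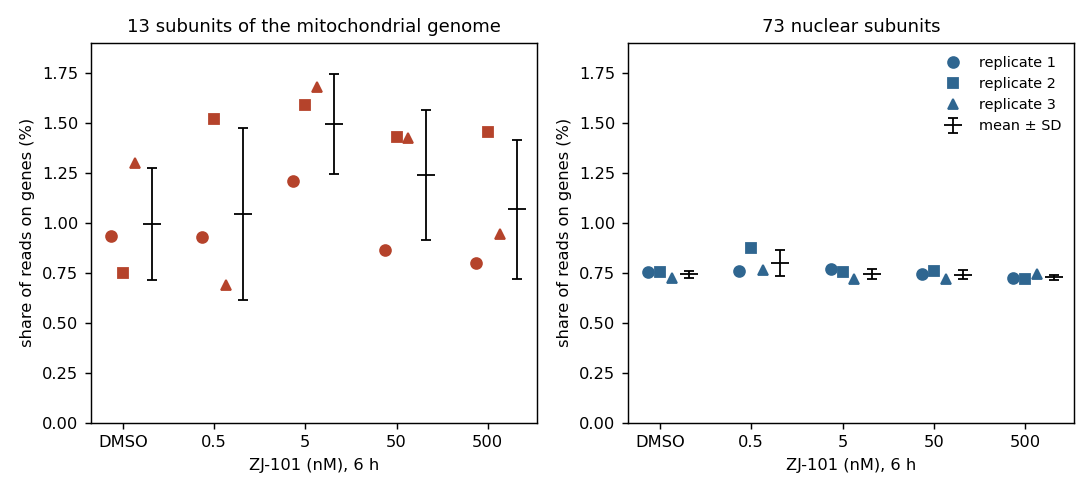
Share of reads on genes (%) taken by the mitochondrial (left) and nuclear (right) subunits in each library, by ZJ-101 dose (nM), with one symbol per replicate and the group mean ± SD in black. The mitochondrial share runs from 0.687% to 1.68% and overlaps between groups, and the nuclear share stays between 0.718% and 0.872%.

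The same contrast held for single genes. The standard deviation between replicates of one group, on the log2 scale, had a median of 0.454 over the mitochondrial genes (0.292 to 0.533), 0.0973 over the nuclear genes (0.0412 to 0.262) and 0.107 over the 13561 genes tested. The mitochondrial genes deviated from their group means together: over the 15 libraries, the correlation between 2 of them had a median r of 0.969 (0.884 to 0.998 over 78 pairs). Nuclear genes had a median r of 0.578 among themselves and 0.211 with mitochondrial genes. These correlations describe values that share libraries and size factors and carry no test. They include replicate 2 at 0.5 nM, the library that stood apart, and were not computed without it. In that library 72 of 73 nuclear genes were above the DMSO mean.

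**Figure D2:**
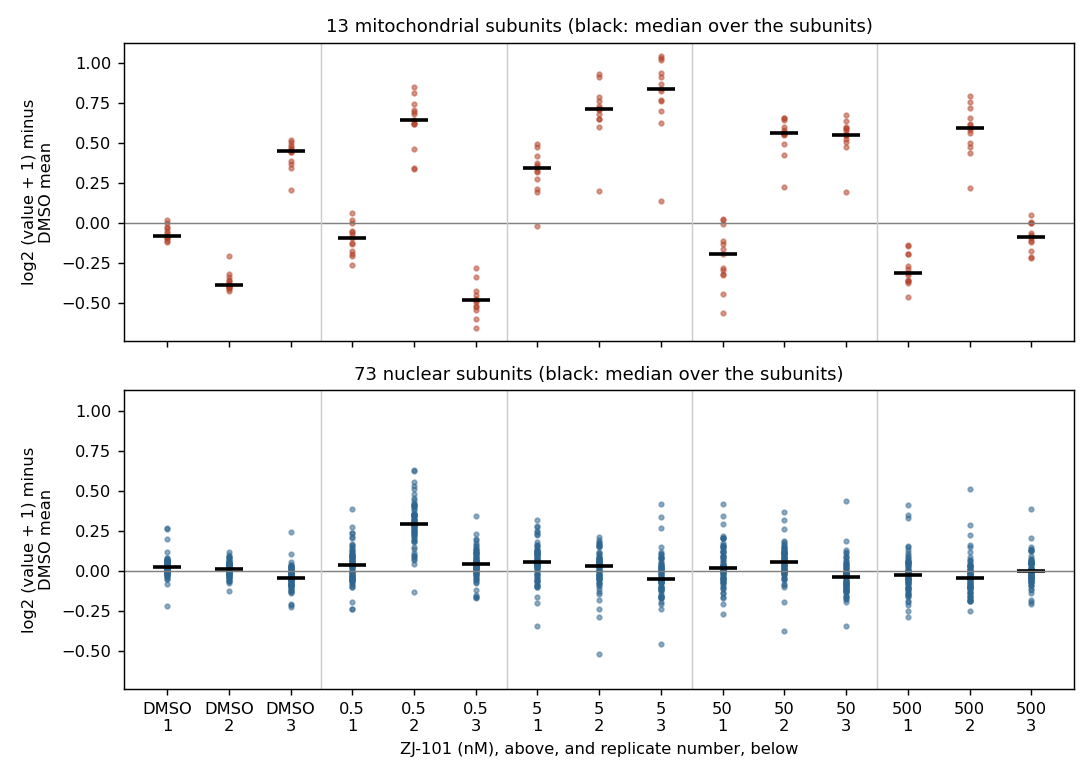
Difference of each subunit's log2 (normalized count + 1) from its DMSO mean in each of the 15 libraries, for mitochondrial (top) and nuclear (bottom) genes, with the median over the genes as a black bar. The mitochondrial genes move as a block, with medians from -0.48 to 0.84, and the nuclear genes stay near 0 apart from replicate 2 at 0.5 nM, whose median is 0.30.

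At 5 nM the mitochondrial genes were above DMSO, but none passed the test. The log2 fold change, on the log2 (normalized count + 1) scale, was above 0 for 13 of 13 genes, with a median of 0.63 (0.11 to 0.82) against 0.00 over all genes tested. By limma with Benjamini-Hochberg adjustment over all tested genes, 0 of 13 were called, where 2.18% of all genes were called at this dose. At an unadjusted p under 0.05 there were 8 of 13, all higher, against 672 higher and 1077 lower of the 13561 genes tested. EdgeR and DESeq2 on the recovered reads called 0 of the 13, and the smallest limma adjusted p was 0.0996 for MT-ND4L. Only MT-ND1 had 3 libraries at 5 nM that were all above the DMSO libraries, while non-overlap held for 23.2% of all genes tested.

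The count at 5 nM depended on which libraries entered the fit. With the 6 libraries of 5 nM and DMSO alone, limma called 11 of 13 (all but MT-ATP6 and MT-ND3, adjusted p from 0.00328 to 0.0342) and 846 genes in all. Without replicate 2 at 0.5 nM, which enters only through the shared estimate of the spread, MT-ND1 and MT-ND4L were called (log2 fold changes 0.82 and 0.77). Without replicate 3 of DMSO, the highest DMSO library, MT-ND4L alone was called with 1.02, and the median over the 13 genes was 0.86. Without replicate 2 of DMSO, the lowest, that median was 0.44 and 0 were called.

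MT-ND1, a membrane subunit of complex I next to the quinone site, had 6143, 4818 and 8660 normalized counts in DMSO and 8938, 12139 and 12890 at 5 nM. Its log2 fold change was 0.82 (SE 0.28, 95% interval 0.22 to 1.41, limma adjusted p = 0.176). All 3 libraries at 5 nM were above DMSO, and replicate 1 at 5 nM exceeded the highest DMSO library only slightly. MT-ND4L, a small membrane subunit of complex I, had 1713, 1363 and 2620 in DMSO and 2548, 3161 and 3733 at 5 nM, with a log2 fold change of 0.77 (SE 0.23). The groups overlapped, because the highest DMSO library was above the lowest library at 5 nM. MT-ND4 and MT-ND5, which are among the antiporter-like pumping subunits of complex I, had log2 fold changes of 0.79 and 0.67.

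MT-CO1 had 35302, 27921 and 46918 normalized counts in DMSO and 44816, 58784 and 60997 at 5 nM. Its log2 fold change was 0.60 (SE 0.24, 95% interval 0.092 to 1.11, limma adjusted p = 0.275). Replicate 3 of DMSO was above replicate 1 at 5 nM. MT-CO2 and MT-CO3, the other mitochondrial core subunits of complex IV, had values of 0.54 and 0.55, and MT-CYB, the cytochrome b of complex III, had 0.65. MT-ATP6 and MT-ATP8, the mitochondrially encoded membrane subunits of ATP synthase, had 0.52 and 0.63. MT-ND2 had 0.65 and MT-ND6 had 0.59.

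MT-ND3, a small membrane subunit of complex I, had the smallest value at 5 nM. It had 4001, 3463 and 4610 normalized counts in DMSO and 3945, 4586 and 4404 at 5 nM, and its log2 fold change was 0.11 (SE 0.18, 95% interval -0.27 to 0.49). The other 12 mitochondrial genes ranged from 0.52 to 0.82. As a share of the reads on the 13 genes, MT-ND3 had 3.16%, 3.42% and 2.64% in DMSO and 2.41%, 2.12% and 1.93% at 5 nM, so the shares in the 2 groups did not overlap. MT-ND1 had 4.85%, 4.76% and 4.96% in DMSO and 5.45%, 5.61% and 5.64% at 5 nM, also without overlap. Both genes were singled out after their values were seen, and no test of their shares was run. In replicates 1 to 3 the MT-ND3 share was 2.78%, 2.66% and 3.54% at 0.5 nM and 2.80%, 2.42% and 2.39% at 50 nM. At 500 nM it was 2.69%, 2.38% and 2.72%. It was highest in replicate 3 at 0.5 nM, which had the smallest share of reads on the 13 genes. It was lowest in replicate 3 at 5 nM, which had the largest. Whether the MT-ND3 share followed the dose or the total mitochondrial share was not tested. The share of MT-CO1 lay between 26.0% and 31.3% in all 15 libraries.

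**Figure D3:**
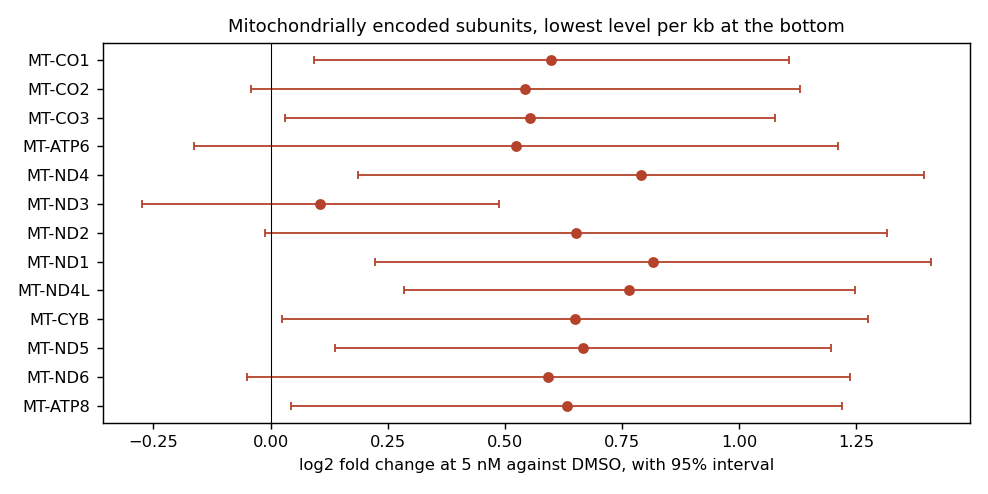
Log2 fold change of each mitochondrial gene at 5 nM against DMSO, with its 95% interval, ordered by level per kb. MT-ND3, at 0.11, lies below the other 12 genes, which range from 0.52 to 0.82, and the intervals are wide.

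Some other transcripts were also higher in libraries at 5 nM, and their part in the result was not tested. MT-RNR1, the small mitochondrial rRNA, rose by a log2 fold change of 0.68 (limma adjusted p = 0.0278, called by edgeR but not by DESeq2), and MT-RNR2, the large one, had 0.57 (adjusted p = 0.165). RN7SL1, the RNA of the signal recognition particle, rose by 0.55 (limma adjusted p = 0.0220). The call of MT-RNR1 was lost without any 1 library of DMSO or 5 nM (0.60 to 0.76), and that of RN7SL1 without any 1 of DMSO or replicate 2 or 3 at 5 nM (0.49 to 0.57). MALAT1, a long nuclear RNA, ranged from 431 to 520 normalized counts in DMSO and had 475, 1319 and 749 at 5 nM. In replicate 2 at 0.5 nM, where the median mitochondrial gene was 0.64 above the DMSO mean, MALAT1 had 984 and RN7SL1 had 1679. At 50 nM RN7SL1 did not follow the mitochondrial genes. In replicates 2 and 3 of that dose, with mitochondrial medians of 0.56 and 0.55, RN7SL1 had 958 and 892. These values were below the lowest DMSO library, at 1044, while MALAT1 had 609 and 690. In bulk RNA, fewer cells with a transcript and less of it per cell cannot be told apart.

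At the other doses the median of the mitochondrial genes was nearer to DMSO, and it depended on single libraries. The median log2 fold change over the 13 genes was 0.02 at 0.5 nM (-0.08 to 0.13), 0.31 at 50 nM (0.04 to 0.39) and 0.09 at 500 nM (-0.15 to 0.21). At 0.5 nM it was -0.28 without replicate 2, 0.27 without replicate 3 and 0.08 without replicate 1 of that dose, and it was -0.01, -0.16 and 0.24 without replicates 1, 2 and 3 of DMSO. At 50 nM it was 0.56 without replicate 1, 0.16 without replicate 2 and 0.17 without replicate 3 of that dose, and 0.11 and 0.51 without replicates 2 and 3 of DMSO. At 500 nM it was 0.24, -0.19 and 0.16 without replicates 1, 2 and 3 of that dose, and 0.05, -0.11 and 0.31 without replicates 1, 2 and 3 of DMSO. The sign thus changed at 0.5 and 500 nM and stayed above 0 at 50 nM. With all libraries, none was called at any of these doses by limma, edgeR or DESeq2, and 0 of 13 had an unadjusted p under 0.05 by limma. The background of calls was 1.17% at 0.5 nM, 6% at 50 nM and 17.8% at 500 nM. These data do not bound the mitochondrial changes closely: at 500 nM, 0 of 13 intervals lay within 0.5 of 0 on the log2 scale (1.41-fold), although 13 of 13 lay within 1 (2-fold).

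At 5, 50 and 500 nM, 1 nuclear subunit passed the test, at 500 nM. At 500 nM, 1 of 73 was called and it fell, against 17.8% of all tested genes called in either direction and 10.1% called lower. The median log2 fold change was -0.03 over the 73 genes and 0.00 over all tested genes. It was below 0 for 46 of 73 genes, against 6697 of the 13561 tested, and the slope over the dose rank was below 0 for 61 of 73, against 6785 of 13561. The median slope of the 73 genes was small, -0.0159 per step, and depended on single libraries. It was -0.00786 without replicate 2 at 0.5 nM and -0.0226 without replicate 3 of DMSO. The genes share libraries, so their number below 0 carries no test. Of the 73 intervals at 500 nM, 50 lay within 0.25 of 0 (1.19-fold), 70 within 0.5 and 73 within 1. At 50 nM and at 5 nM, 0 of 73 were called, the medians were 0.01 and 0.02, and 71 and 68 intervals lay within 0.5. At 50 nM, 10 of 73 did not overlap DMSO, against 24.8% of all tested genes. At 5 and at 50 nM 1 gene had an unadjusted p under 0.05 by limma, and edgeR and DESeq2 called 0. Over the 13561 tested genes, the unadjusted counts were 672 higher and 1077 lower at 5 nM, and 1072 and 1290 at 50 nM. By complex, the medians at 500 nM were 0.00 in complex I, -0.07 in complex II, -0.01 in complex III, -0.06 in complex IV and -0.04 in complex V. In complex IV 11 of 13 genes and in complex V 13 of 17 were below 0, compared with 13 of 29 in complex I.

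**Figure D4:**
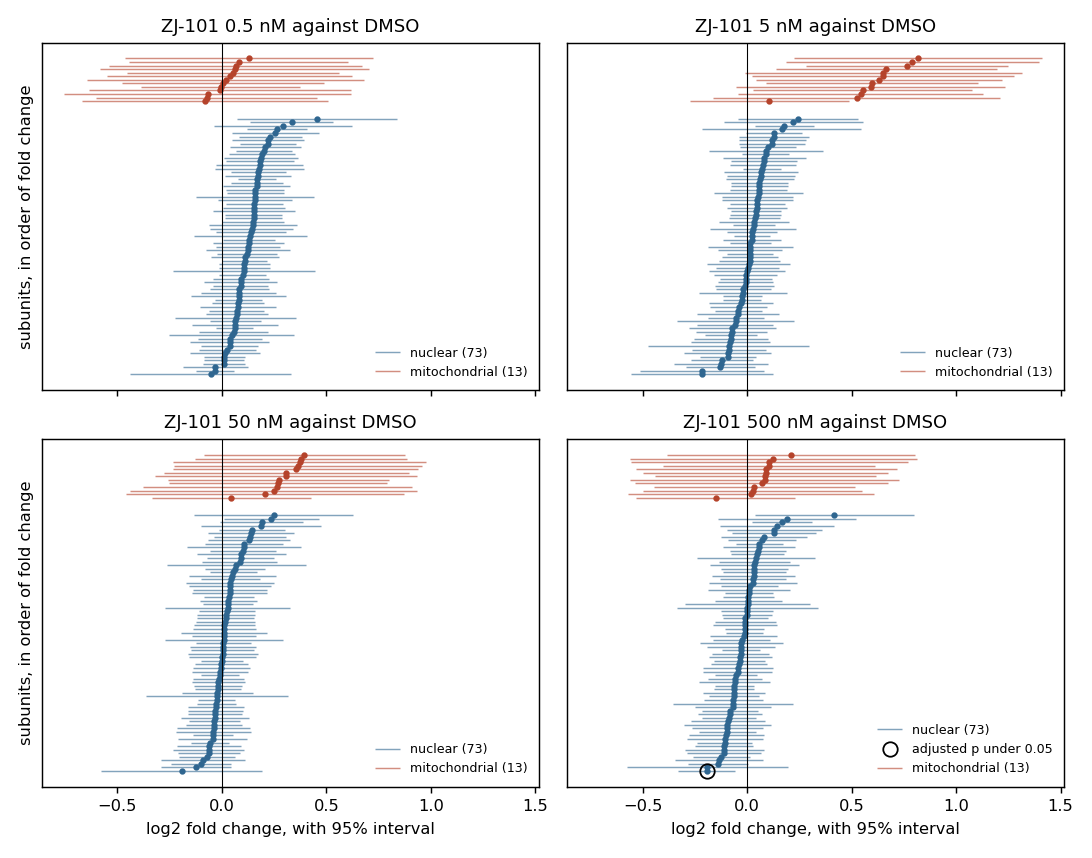
Log2 fold change against DMSO with its 95% interval for every subunit at each ZJ-101 dose, nuclear genes in blue and mitochondrial genes in red. One gene, NDUFA5 at 500 nM, is past the threshold (circled), and the intervals of mitochondrial genes are wider than those of nuclear genes.

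NDUFA5, an accessory subunit in the matrix arm of complex I (chr7:123536997-123557904, hg38, minus strand), was the called gene. It had 763, 737 and 736 normalized counts in DMSO, 696, 856 and 733 at 0.5 nM, and 733, 734 and 688 at 5 nM. At 50 nM it had 716, 721 and 691, and at 500 nM 628, 670 and 658. The 500 nM libraries were all below every other library, and those at 5 and 50 nM were also below DMSO. At 500 nM the log2 fold change was -0.19 (SE 0.064, 95% interval -0.33 to -0.06, limma adjusted p = 0.0442). The slope over the dose rank, from DMSO to 500 nM, was -0.05 per step (SE 0.015, limma adjusted p = 0.0262), and it was the only member called, where 17.6% of all tested genes were called and 9.33% were called lower. The call at 500 nM was lost under 16 of 27 alternatives, including edgeR, DESeq2 and the omission of any 1 library of DMSO, 50 nM or 500 nM or of replicate 1 or 2 at 5 nM. The sign stayed the same in all 27 (-0.21 to -0.17, adjusted p from 0.00576 to 0.154). The slope kept its call in 22 of them and lost it without any 1 of the 500 nM libraries (-0.05 to -0.04 per step).

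COX5B and COX6B1, nuclear subunits of cytochrome c oxidase, had the next smallest p for the slope and did not pass by limma. DESeq2 called the slope of COX5B (-0.05 per step, adjusted p = 0.0461), as did limma over the treated libraries alone (-0.09 per step, adjusted p = 0.00671). Without replicate 3 of DMSO or replicate 2 at 0.5 nM, the slope of COX5B also passed by limma with -0.06 and -0.04 per step. COX5B had 1514, 1539 and 1394 normalized counts in DMSO and 1293, 1301 and 1446 at 500 nM, so the groups overlapped (log2 fold change -0.14, SE 0.068, and slope -0.05 per step, limma adjusted p = 0.0592). COX6B1 had 1720, 1787 and 1724 in DMSO and 1630, 1596 and 1630 at 500 nM, and these did not overlap (log2 fold change -0.11, SE 0.063, limma adjusted p = 0.279). Non-overlap between DMSO and 500 nM held for 9 of 73 nuclear genes and 38.5% of all tested genes. The other 8 were COX6B1, COX6C, COX7A2 and COX7C of complex IV, NDUFA11 and NDUFB5 of complex I, UQCR11 of complex III, and ATP5MC1 of complex V.

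The most abundant nuclear subunit of each complex did not pass the test at 500 nM. NDUFS1, the large iron-sulfur subunit of complex I, had 2597 ± 18.6 normalized counts in DMSO and 2543 ± 30.3 at 500 nM (SD, n = 3), with a log2 fold change of -0.03 and an interval of -0.12 to 0.06. SDHB, the iron-sulfur subunit of succinate dehydrogenase, had 1511 ± 51.4 and 1427 ± 40.5. UQCRC1, a core subunit of complex III, had 3064 ± 96.6 and 3038 ± 36.0. COX4I1, the general isoform of COX4, had 2928 ± 93.8 and 2865 ± 45.0. ATP5F1B had 13948 ± 399 and 13826 ± 285, and its interval ran from -0.10 to 0.08.

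The nuclear genes with the widest spread between replicates were low in count. The SD of the log2 value was 0.262 in ATP5PO (mean 106), 0.219 in NDUFA11 (51.4) and 0.215 in NDUFA9 (94.2), against 0.0412 in ATP5F1B (14042) and 0.0439 in NDUFS1 (2545). NDUFA11, an accessory membrane subunit of complex I, had the largest fold change of the nuclear members at 500 nM. It had 50.9, 40.5 and 36.5 normalized counts in DMSO and 54.0, 60.7 and 55.6 at 500 nM, which did not overlap. Its difference of 0.42 on the log2 scale (SE 0.18, 95% interval 0.04 to 0.80) did not pass the test (limma adjusted p = 0.13), and 68.2% of its exon bases lie in another gene.

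At 0.5 nM the nuclear genes as a group were higher, and 1 library carried most of the shift. The log2 fold change was above 0 for 70 of 73 genes with a median of 0.13, against -0.01 over all genes tested. None was called by limma or edgeR, where 1.17% of all genes were called by limma. By limma, 26 of 73 had an unadjusted p under 0.05, all higher. Over the 13561 genes tested, this held for 827 higher and 1170 lower. DESeq2, run on all libraries only, called 231 of all genes, 4 of them nuclear members (ATP5MC1, NDUFS8, UQCRC1 and UQCRQ). Without replicate 3 at 0.5 nM, limma called 3 of these, all but UQCRC1. In replicate 2 at 0.5 nM, 72 of 73 genes were above the DMSO mean, with a median difference of 0.30, compared with medians of 0.04 in both replicate 1 and replicate 3. Without replicate 2 the median log2 fold change at 0.5 nM was 0.04, and 7 of 73 genes had an unadjusted p under 0.05.

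ATP5MC1, which encodes a c subunit of the ATP synthase ring, had 1315, 1251 and 1172 normalized counts in DMSO, 1441, 1655 and 1395 at 0.5 nM, and 1382, 1453 and 1360 at 500 nM. Both treated groups were above every DMSO library, also without replicate 2 at 0.5 nM. The log2 fold change of ATP5MC1 at 0.5 nM was 0.26 (SE 0.068, limma adjusted p = 0.0787), and that at 500 nM was 0.17 (adjusted p = 0.105, or 0.0351 without replicate 2 at 0.5 nM). UQCRC1 had 3332, 3621 and 3385 at 0.5 nM against 3136, 3103 and 2954 in DMSO, with a log2 fold change of 0.17 (SE 0.044) and the smallest limma adjusted p of the members at this dose, 0.0743. NDUFS8, an iron-sulfur subunit of complex I, and UQCRQ of complex III had 0.22 and 0.33. Without replicate 2 at 0.5 nM, the log2 fold changes were 0.19 in ATP5MC1, 0.13 in UQCRC1, 0.13 in NDUFS8 and 0.19 in UQCRQ, and none passed (limma adjusted p from 0.149 to 0.264). Between DMSO and 0.5 nM, 22 of 73 nuclear genes did not overlap, against 18.1% of all tested genes.

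The promoters of the nuclear genes were searched for short motifs of factors known to act on respiratory genes, in a window of 250 bases before and 50 bases after the RefSeq start (GRCh38.p14, both strands). Of the 73 genes, 57 had a RefSeq window. The 10-letter core of the site of NRF1, which has 1 free position, was in 14 of 57 (24.6%) and in 6.28% of all 27305 promoters. The ETS core CCGGAAG was in 31.6% of members and 10.7% of all promoters, and the YY1 core AAGATGGC in 12.3% and 3.03%. The GC box GGGCGG was in 61.4% and 44.6%. For 10 of the 57 genes, NDUFA5 among them, the RefSeq start lay more than 1000 bases from that of GENCODE. In the other 47 the shares were 25.5%, 34.0%, 12.8% and 57.4%. A match describes the letters and not a bound site. All promoters include those of genes with low or no counts here, and the sets were not matched for expression or base content.

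The 250 bases before the start are shown for SDHB, COX5B and COX6B1, whose starts agree in both annotations, with motif matches in capitals. They show the ETS core alone or beside GC boxes, were chosen after values were seen, and lie at chr1:17054033-17054282 (minus strand), chr2:97645812-97646061 and chr19:35648073-35648322 (plus strand).
SDHB: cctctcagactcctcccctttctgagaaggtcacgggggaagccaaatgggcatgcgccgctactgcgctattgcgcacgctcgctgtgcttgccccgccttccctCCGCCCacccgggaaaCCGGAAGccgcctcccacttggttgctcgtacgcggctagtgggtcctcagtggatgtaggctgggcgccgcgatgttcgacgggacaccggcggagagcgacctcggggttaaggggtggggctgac
COX5B: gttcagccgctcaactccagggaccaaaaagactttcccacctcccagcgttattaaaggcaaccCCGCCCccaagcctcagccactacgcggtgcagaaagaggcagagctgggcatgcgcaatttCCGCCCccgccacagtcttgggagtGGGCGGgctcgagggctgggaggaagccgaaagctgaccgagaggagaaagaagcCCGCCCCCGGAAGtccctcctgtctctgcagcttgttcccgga
COX6B1: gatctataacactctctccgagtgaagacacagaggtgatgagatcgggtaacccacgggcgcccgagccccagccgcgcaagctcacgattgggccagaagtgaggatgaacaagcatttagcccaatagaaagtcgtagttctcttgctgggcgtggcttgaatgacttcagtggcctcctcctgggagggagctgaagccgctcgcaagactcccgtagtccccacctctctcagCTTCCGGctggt

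Several subunits that every respiring cell uses were listed at low counts, and most of them share exon bases with another gene. Among 78 coding nuclear subunit genes, with isoforms of other tissues and the UQCRHL retrogene left aside, 12 had a mean under 150. In 7 genes over 50% of the exon bases lay within another annotated gene on the same strand, and all 7 were among the 12, with means from 1.44 to 106. They were NDUFA7, NDUFV2, NDUFA13, NDUFB8 and NDUFA11 of complex I, SDHA of complex II and ATP5PO of complex V. NDUFA6 and NDUFA3 have copies on alternate contigs of hg38 and had means of 0 and 3.81. Of the 59 genes with neither an overlap of that size nor a close copy, 3 were under 150, namely ATP5ME, NDUFS7 and NDUFA9, and the median was 1084. These limits and the group of genes were chosen after the values were seen, and whether the counting set reads aside in these genes was not tested.

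**Figure D5:**
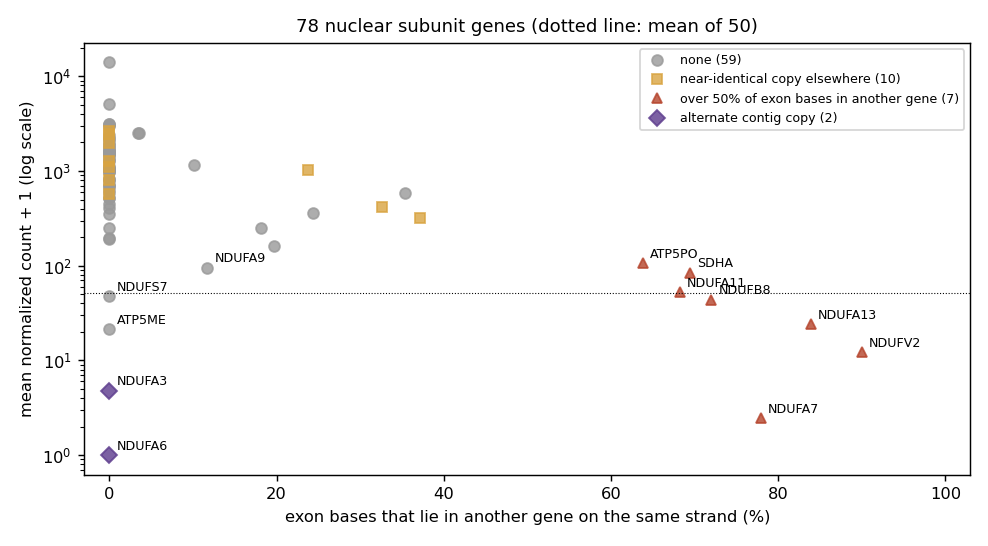
Mean normalized count + 1 (log axis) of 78 nuclear subunit genes against the share of their exon bases that lies in another gene on the same strand, with genes of close or alternate copies marked. The 7 genes with over 50% shared bases lie below 150, and the dotted line marks the mean of 50 that a member needed.

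SDHA, the flavoprotein of succinate dehydrogenase, illustrates the scale. It had a mean of 83.1 normalized counts, while SDHB, its partner in the same complex, had 1511. The overlap covered 69.4% of its exon bases and 90% in NDUFV2, a flavoprotein-fragment subunit of complex I with a mean of 11.1. Both genes also have close copies elsewhere in hg38, with 3 for SDHA (96% identical bases in the closest match) and 1 for NDUFV2 (97.8%). NDUFA7, NDUFV2, NDUFA13 and NDUFB8 were below the minimum and are not members. Close copies also exist for COX6A1P2 and UQCRFS1P1, members annotated as processed pseudogenes, and for UQCRHL, which is also a member. Of the 13 mitochondrial genes, 8 have a nuclear copy with 95% to 98.6% identical bases, so reads on either cannot always be told apart.

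Among genes that build the chain, a few rose at 500 nM, where the background was 7.69% of all tested genes called higher and 10.1% called lower. Of 18 complex I assembly factors tested, 1 rose and 0 fell, and of 35 assembly factors of complexes II to V, 4 rose and 0 fell. NDUFAF1, a complex I assembly factor, rose from a mean of 259 normalized counts in DMSO to 347 (log2 fold change 0.42, SE 0.088, limma adjusted p = 0.00193). COA7 of complex IV assembly rose by 0.29 and LYRM7 of complex III assembly by 0.30. The call of LYRM7 was lost without replicate 2 of DMSO (0.26) or replicate 2 at 500 nM (0.25). The medians of the lists were 0.00 and 0.06.

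Of 14 regulators of nuclear respiratory genes, 3 rose and 2 fell at 500 nM. Over all tested genes, 7.69% were called higher and 10.1% lower. PPARGC1B and PPRC1, coactivators of the PGC-1 family, rose by 0.75 (SE 0.16, limma adjusted p = 0.00223) and 0.42 (SE 0.048, adjusted p = 3.81e-06). PPRC1 went from a mean of 1073 in DMSO to 1439. NFE2L2, the antioxidant response factor, fell by 0.30 and HIF1A, the hypoxia factor, by 0.16. The median over the list was -0.02.

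Limma called 7.69% of all tested genes higher and 10.1% lower at 500 nM. Among 19 genes of mitochondrial DNA upkeep and transcription, it called 1 higher and 2 lower. EdgeR and DESeq2 each called 2 higher and 2 lower. The gene called higher by these tools and not by limma was SSBP1, the mitochondrial single-stranded DNA binding protein (limma log2 fold change 0.44, adjusted p = 0.0594). TWNK, the mitochondrial helicase, rose by 0.24 (SE 0.063, limma adjusted p = 0.0125). TK2, the mitochondrial thymidine kinase, fell by 0.34 and RRM2B, a ribonucleotide reductase subunit, by 0.22. The call of TWNK was lost without replicate 2 of DMSO (0.21) and replicates 2 and 3 at 500 nM (0.22 and 0.19), and that of RRM2B without replicates 2 and 3 of DMSO (-0.19 and -0.23) and replicate 1 at 500 nM (-0.18). Of 21 genes of mitochondrial RNA processing and decay, MTPAP, the mitochondrial poly(A) polymerase, rose by 0.29 and PDE12, which removes poly(A) from mitochondrial RNA, by 0.25, and no other was called. At 5 nM, where the mitochondrial mRNAs were highest, limma, edgeR and DESeq2 called 0 of these 19 and 0 of these 21 genes. Limma called 2.18% of all tested genes at this dose, and 0 in lists of this size is near that share. By limma, 0 and 1 of the listed genes had an unadjusted p under 0.05.

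Other mitochondrial functions also had calls at 500 nM, against 7.69% of all tested genes called higher and 10.1% called lower by limma. Of 29 import genes, 4 rose, including HSPA9, the matrix chaperone of the import motor (0.26, limma adjusted p = 0.000166), and TOMM20, a receptor of the outer membrane (0.18, not called without replicate 3 of DMSO, where it was 0.15). Of 20 genes of the tricarboxylic acid cycle and pyruvate dehydrogenase, OGDH rose by 0.16, and IDH2 and PDHB fell by 0.28 and 0.18. IDH3A, a subunit of isocitrate dehydrogenase, was called higher by edgeR alone (0.20 by both edgeR and limma, limma adjusted p = 0.0558). OGDH was not called without replicate 1 at 500 nM (0.13), nor PDHB without replicate 2 of DMSO or of 500 nM (-0.15 each). The call of IDH2 was lost without any 1 library of 5 or 500 nM, replicate 2 or 3 of DMSO, or replicate 1 at 50 nM (-0.30 to -0.22). None of 20 genes of electron carriers and coenzyme Q synthesis was called by limma, edgeR or DESeq2, with 1 at an unadjusted p under 0.05 by limma. None of 3 respiratory subunits whose symbols the selection leaves out was called by any of these tools, and 0 had an unadjusted p under 0.05 by limma.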

How the data were processed

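Polyadenylated RNA from MDA-MB-231 cells was sequenced in 15 libraries, 3 for DMSO and 3 for each of 4 ZJ-101 doses. The authors aligned reads with HISAT2 to hg38, counted them per gene with HTSeq on a GENCODE annotation, and deposited a signal, normalized counts, made by dividing reads by DESeq2 size factors. The versions, the GENCODE release and the strand setting are not given in the sources used here. Multiplying the values back gave whole reads for 100% of values (within 0.001), with size factors from 0.916 to 1.13. One line without a gene was left out.

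Genes with a mean of at least 10 (13561) were tested by limma 3.58.1 in R 4.3.3 on log2 (normalized count + 1) with trended variance. All 5 groups entered one fit, each dose was compared with DMSO, and a slope was fitted over the dose rank. Benjamini-Hochberg adjustment ran over all tested genes, with calls at an adjusted p under 0.05. Replicates are separate samples in the labels, and for treated dishes these are called biological. All p-values measure the spread between these libraries. On simulated counts for the 500 nM comparison (13486 genes), 155 of 199 changed genes were recovered, with 7 false calls. By fold, these were 25 of 50 at 1.25, 38 of 50 at 1.5, 43 of 50 at 2 and 49 of 49 at 3. Each gene was drawn on its own, so the simulation holds no shift that the genes of a library share. Its recovery is over all tested genes and does not describe the mitochondrial members, whose spread between replicates was wider.

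The members and gene lists were chosen with earlier results of these data known. Named genes were the 13 mitochondrial members, up to 2 called members in each direction per complex at 500 nM, the highest nuclear member of each complex, the 3 nuclear members with the smallest p for the slope, up to 4 called members at 0.5 and 5 nM, and up to 2 called genes in each direction per other list at 500 nM. ATP5MC1, NDUFS8, UQCRQ and NDUFA11, the genes of low count, MT-RNR1, MT-RNR2, RN7SL1, MALAT1, SSBP1 and IDH3A were named after their values were seen. Positions, lengths and overlaps come from GENCODE 44 on hg38, and close copies from minimap2 2.31 alignments of its transcripts to hg38. The alternatives were other pseudocounts, filters, scalings, tools (edgeR 4.0.16, DESeq2 1.42.0 on the recovered reads), a replicate block, other sets of libraries, a fold minimum and the omission of each library. One marker of the cell line is not reported here.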

Additional observations from a re-analysis of the deposited data

How the results depend on the processing

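Counts of called members depended on the fit. For nuclear members higher at 0.5 nM (0), DESeq2 gave 4, the replicate block gave 1 (ATP5MC1), and leaving out each library gave 0 to 3. For mitochondrial members higher at 5 nM (0), a fit of that dose and DMSO alone gave 11, and leaving out each library gave 0 to 2. For nuclear members higher at 500 nM (0), the fit of dose and DMSO alone gave 1, and leaving out each library 0 to 1. For nuclear members lower at 500 nM (1), the count was 0 with no filter on low values, equal totals outside the mitochondrial genome, edgeR, DESeq2 and a log2 fold minimum of 0.25, 2 with the dose and DMSO alone, and 0 to 1 without each library. For the slope, 1 nuclear member lower became 0 with no filter and with the fold minimum, 2 with DESeq2, 9 over the treated libraries alone, and 0 to 2 without each library. Calls over all 13561 tested genes moved as well. DESeq2 called 231 at 0.5 nM and 2543 by the slope, against 159 and 2381 by limma. Dose and DMSO alone gave 846 at 5 nM and 3294 at 500 nM, against 295 and 2409. The slope over the treated libraries alone called 2409 of all genes. That fit starts from the 0.5 nM group, which holds the library that stood apart. The cause of these changes was not tested. In the fits that left out a library, the remaining ones of all groups shared 1 estimate of the spread.

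The sign of UQCRC1 at 500 nM changed without replicate 1 of DMSO (0.00470), with values from -0.0382 to 0.00470 over the fits that each left out 1 library. That of ATP5F1B changed without replicate 2 of DMSO (0.00571) and without replicate 2 at 500 nM (0.00340), with values from -0.0351 to 0.00571. Neither gene was called at 500 nM in any fit. The other scalings moved the median of all genes by less than 0.02. Single genes are given at the doses the text reports. This was decided after the alternatives at all doses had been seen. Over all doses and the slope, 4940 values of the 38 named genes included 114 changes of sign (the largest value among them 0.333), none in a gene past the threshold in either fit, while 101 calls were lost and 37 gained.

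The replicate numbers did not pair the libraries: deviations of libraries with the same number correlated with r from -0.0855 to 0.0961 in 30 pairs, and 7 of 15 libraries correlated best with their own number. The replicate block changed no other count of called members, while mitochondrial genes at an unadjusted p under 0.05 at 5 nM went from 8 to 11. Depth was similar in all libraries, and it limits the genes of low count most, such as NDUFA11 with an SE of 0.18 at a mean of 51.4.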
